A study of Saccharomyces cerevisiae with 3 samples.

Results

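The 34 genes described here encode the proteasome of Saccharomyces cerevisiae and its transcriptional regulator. They were chosen by ORF name: the 14 subunits of the core particle, 18 subunits of the regulatory particle (RPT1 to RPT6, RPN1 to RPN3 and RPN5 to RPN13), the adaptor ECM29 and the transcription factor RPN4. All 34 are among the 5293 ORFs listed for each library, and all 34 passed the filter on low values that left 5199 ORFs. The cells were BY4741, a laboratory haploid, in mid-log growth in the rich glucose medium YPD, and all libraries share that strain and medium. Each of 3 preparations of cytoplasmically enriched RNA gave 1 RNA-seq library: RNA captured on oligo(dT) Dynabeads (poly(A)-selected), RNA cleared of rRNA with RiboMinus probes (RiboMinus), and total RNA (unselected). With 1 library per preparation no difference has a replicate check, so no p-value is given, and the intervals printed cover counting error only.

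The proteasome degrades proteins tagged with ubiquitin. Its core particle is a barrel of stacked rings, with outer rings of alpha subunits that gate the channel and inner rings of beta subunits, some of which carry the protease sites. The regulatory particle caps the barrel: its base holds the ring of RPT ATPases that unfold and thread substrates, and its lid removes the ubiquitin chain. Each assembled particle needs its subunits in fixed ratios. In yeast, Rpn4 activates proteasome genes through a promoter element called PACE, and Rpn4 is itself a short-lived substrate of the proteasome.

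Levels are the deposited RPKM, reads per kilobase of ORF and per 1000000 reads. Division by ORF length does not remove every length trend. The ratio of the poly(A)-selected to the unselected library still had a Spearman's rho of -0.76 with coding length over the 5199 ORFs kept. Levels of short and long ORFs within a library are therefore set side by side with that limit. Reads in the listed ORFs numbered 6467506 in the poly(A)-selected, 1317754 in the RiboMinus and 4452593 in the unselected library. The 34 genes took 1.19%, 1.10% and 0.908% of those reads (exact binomial intervals 1.18% to 1.20%, 1.08% to 1.12% and 0.899% to 0.917%). The thinnest member had 829 reads (RPN4), 132 reads (PRE5) and 454 reads (RPN13) in those libraries in the same order. No member's ORF overlaps another ORF or shares a run of 30 bases with one. The mating type a receptor gene STE2 had 429 to 512 RPKM across the libraries, the alpha-specific STE3 had 2.15 to 6.53 RPKM, and MET17, deleted in BY4741, had 0.84 to 2.21 RPKM.

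PACE was searched for as GGTGGCAAA on both strands of a window from 250 bases before the start codon to 50 bases into the ORF, in the R64 genome, the assembly also called sacCer3. Of the 34 windows, 28 held the exact motif, against 1.28% of all listed ORFs (68 of 5293, the 28 included). With NGTGGCNAA, a looser form that contains the exact one, the count was 33 of 34, against 4.19% of all listed ORFs. PACE is already known as an element of proteasome genes, so both counts are descriptions and not an independent enrichment. RPN4 was the member without a match. No window held more than 1 site. The upstream end of the site lay 84 (RPT6) to 183 (PUP3) bases before the start codon, with a median of 124, and 24 of the 33 sites read on the strand of the gene. The runs shown here carry the motif in capitals with 8 bases on each side, read so that the motif runs 5′ to 3′. They are the exact sites of the members with the highest and the lowest subunit level in the unselected library (PRE9 and RPN9), of the adaptor, of PRE2 and RPN1, the subunits with the highest and the lowest ratio of the poly(A)-selected to the unselected library, and of PRE7, the member with the lowest ratio of the RiboMinus to the unselected library:
PRE9, chrVII:761225-761249, plus strand: accctgcaGGTGGCAAAaaatttat
RPN9, chrIV:1322088-1322112, plus strand: tttcatccGGTGGCAAAagtaagaa
ECM29, chrVIII:39945-39969, plus strand: cttttcttGGTGGCAAAaaaaaggt
PRE2, chrXVI:732186-732210, plus strand: agcaaaagGGTGGCAAAacgaagaa
RPN1, chrVIII:164840-164864, minus strand: tgttttacGGTGGCAAAaggcgagc
PRE7, chrII:141152-141176, plus strand: actcaaagGGTGGCAAAaacaagcg

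The other 5 matching members differ from the exact motif at 1 base, counted from 1 at the 5′ end of the motif. The looser form leaves only bases 1 and 7 free, so the positions of these differences follow from the search. PRE5, PUP1 and RPN8 carry G1A, and the ubiquitin receptors RPN10 and RPN13 both carry A7G:
PRE5, chrXIII:901554-901578, plus strand: tattatagAGTGGCAAAattaaaaa
PUP1, chrXV:631893-631917, minus strand: cccggccgAGTGGCAAAataccaaa
RPN8, chrXV:817087-817111, minus strand: gatacctcAGTGGCAAAtcgttact
RPN10, chrVIII:498970-498994, minus strand: taaattccGGTGGCGAAaacccgcc
RPN13, chrXII:965658-965682, minus strand: attcgcgaGGTGGCGAAagctttgc

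The whole windows of PRE9, RPN9 and RPN4 are given for comparison, with the motif and the start codon in capitals. Both subunit windows hold 1 exact site, and the 2 mRNAs had the highest and the lowest level among the subunits in the unselected library:
PRE9, chrVII:761142-761441, plus strand: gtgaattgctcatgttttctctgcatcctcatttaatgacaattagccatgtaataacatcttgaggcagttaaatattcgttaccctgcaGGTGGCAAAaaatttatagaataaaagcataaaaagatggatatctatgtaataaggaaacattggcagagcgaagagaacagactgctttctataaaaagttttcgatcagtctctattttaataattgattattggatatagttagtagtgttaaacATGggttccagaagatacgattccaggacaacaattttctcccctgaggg
RPN9, chrIV:1321955-1322254, plus strand: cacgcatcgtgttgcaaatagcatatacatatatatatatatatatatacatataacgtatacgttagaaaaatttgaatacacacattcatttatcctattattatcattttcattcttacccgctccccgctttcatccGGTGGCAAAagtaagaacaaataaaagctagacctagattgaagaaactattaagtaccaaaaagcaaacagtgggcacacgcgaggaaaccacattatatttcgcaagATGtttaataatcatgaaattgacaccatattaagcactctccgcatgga
RPN4, chrIV:416659-416958, minus strand: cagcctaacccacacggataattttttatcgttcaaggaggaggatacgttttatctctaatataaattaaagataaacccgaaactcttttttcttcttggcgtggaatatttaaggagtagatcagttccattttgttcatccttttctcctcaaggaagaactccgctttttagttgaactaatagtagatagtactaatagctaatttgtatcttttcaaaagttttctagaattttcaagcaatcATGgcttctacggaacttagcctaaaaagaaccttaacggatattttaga

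**Figure D1:**
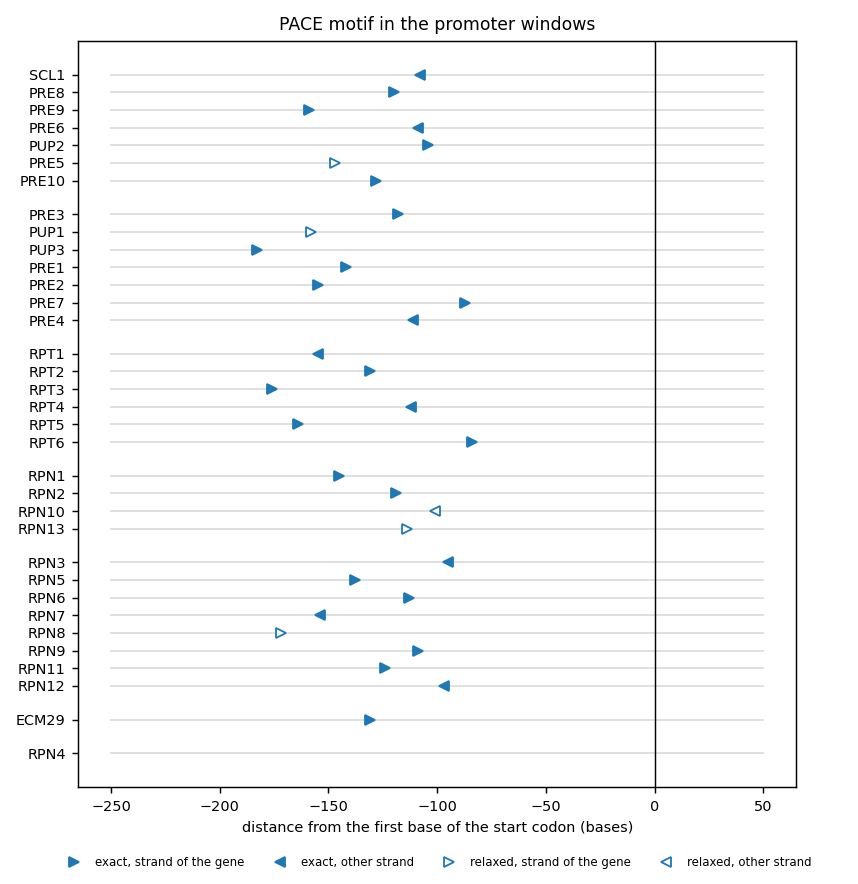
PACE motif in the promoter window of each member: the horizontal axis is the distance in bases from the first base of the start codon, each row is a gene, filled markers are exact and open markers relaxed (looser) matches, and the marker points along the strand on which the motif reads. The upstream ends of all 33 sites lie between 84 and 183 bases before the start codon, and the RPN4 window has no site.

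A match describes these letters in this window and not a binding event. In the unselected library the 27 subunit genes with the exact motif had a median of 237 RPKM (148 to 339), and the 5 with the looser form had 228 RPKM (218 to 248). Outside the members, 40 listed ORFs held the exact motif, with a median of 79.2 RPKM and a range from 2.24 to 978 RPKM. Among them were CDC48, the ATPase that extracts ubiquitylated proteins, and UBA1, the ubiquitin-activating enzyme. For 10 listed ORFs, among them GCD1 beside RPT4, NOP14 beside RPN5 and YTH1 beside RPN7, the window held the exact or looser site of the neighbouring member. Of these, GPN2, NBL1 and DCK1 share the looser sites of RPN8, RPN10 and RPN13 and are not among the 40.

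In the unselected library the 32 subunit mRNAs lay in a narrow band, from 148 RPKM for RPN9 to 339 RPKM for PRE9, a 2.29-fold range. Of these 32, 31 were within 1.5-fold of their median of 237 RPKM, a band that held 490 of the 5199 ORFs kept. In order of level 30 of 31 neighbouring pairs had overlapping counting intervals. That count was 24 of 31 in the poly(A)-selected library and again 30 of 31 in the RiboMinus library. It therefore does not measure how narrow a band is. The 14 core subunits averaged somewhat more than the 18 regulatory subunits. In the other libraries the band was wider: 5.01-fold in the poly(A)-selected library, with 22 of 32 within 1.5-fold of the median, and 4.41-fold in the RiboMinus library, with 21 of 32. Of the 5199 ORFs kept, 466 and 529 lay within 1.5-fold of those subunit medians.

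The alpha ring held the extremes of the core in the unselected library. PRE9 (YGR135W, chrVII:761392-762168), alpha3 and the only core subunit yeast can live without, had 727 RPKM in the poly(A)-selected, 587 RPKM in the RiboMinus and 339 RPKM in the unselected library. SCL1 (YGL011C, chrVII:474489-475247), alpha1, had 364, 204 and 313 RPKM in the libraries in that order. PUP2 (YGR253C, chrVII:998358-999140), alpha5, had 638, 499 and 310.1 RPKM. PRE9 and PUP2 were thus among the 3 highest core mRNAs in every library, while SCL1 was high only in the unselected library. PRE6 (YOL038W), alpha4, had 569, 192 and 260.25 RPKM. PRE10 (YOR362C), alpha7, had 381, 451 and 258 RPKM. PRE5 (YMR314W), alpha6, had 443, 143 and 246 RPKM. PRE10 and PRE5, less than 1.5-fold apart in the poly(A)-selected and unselected libraries, differed by more than 2-fold in the RiboMinus library. PRE8 (YML092C), alpha2, was the lowest core mRNA of the poly(A)-selected and unselected libraries, with 295 RPKM and 190.15 RPKM, and had 202 RPKM in the RiboMinus library.

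The beta ring was the most even group in the unselected library, with 237 to 293 RPKM over its 7 members, a 1.24-fold range. Intervals of neighbours in that order overlapped in all 6 adjacent pairs, but also in 5 of 6 in the RiboMinus library, where the range was 3.3-fold. PRE7 (YBL041W, chrII:141247-141972), beta6, had 464.5 RPKM in the poly(A)-selected, 163 RPKM in the RiboMinus and 293 RPKM in the unselected library. PRE3 (YJL001W), the beta1 subunit with caspase-like activity and the only member with 2 coding exons, had 478, 246 and 281 RPKM. PRE1 (YER012W), beta4, had 461, 181 and 280.2 RPKM. These 3 mRNAs were the highest of the ring in the unselected library. Like PUP1 and PRE4, they had their lowest value in the RiboMinus library, whereas PRE2 and PUP3 were lowest in the unselected library. PRE2 (YPR103W, chrXVI:732349-733212), the beta5 subunit with chymotrypsin-like activity, had 740.05, 452 and 269 RPKM. PUP3 (YER094C), beta3, had 441, 307 and 256 RPKM. PUP1 (YOR157C), the beta2 subunit with trypsin-like activity, had 457, 186 and 248 RPKM. PRE2 stood in the middle of the ring in the unselected library and at its top in both others. PRE4 (YFR050C), beta7, was the lowest of the ring in all 3 libraries, with 352, 136 and 237 RPKM.

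The RPT genes encode the ATPases of the base and spanned 180 to 267 RPKM in the unselected library. RPT1 (YKL145W) had 279.7 RPKM in the poly(A)-selected, 346 RPKM in the RiboMinus and 267 RPKM in the unselected library. RPT2 (YDL007W) had 379, 329.9 and 218 RPKM. RPT3 (YDR394W) had 214, 154 and 179.8 RPKM. RPT3 was the lowest RPT mRNA in every library, and the highest was RPT2 in the poly(A)-selected and RPT1 in the other libraries. RPT6 (YGL048C) had 303, 203 and 223 RPKM. RPT4 (YOR259C) had 300.04, 203 and 212 RPKM. RPT5 (YOR117W) had 249, 297 and 209.75 RPKM. In the unselected library RPT4 and RPT5 lay within each other's counting intervals.

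Of the other base subunits, RPN1 and RPN2 are the large scaffolds and RPN10 and RPN13 are receptors for ubiquitin chains. RPN1 (YHR027C, chrVIII:161730-164711) had 182 RPKM in the poly(A)-selected, 319.95 RPKM in the RiboMinus and 313 RPKM in the unselected library. RPN2 (YIL075C) had 276, 392 and 285 RPKM. RPN10 (YHR200W, chrVIII:499079-499885) had 354, 133 and 224 RPKM. RPN13 (YLR421C) had 368, 313 and 218 RPKM. The scaffold RPN1 was the highest regulatory particle mRNA of the unselected library and next to the lowest of the poly(A)-selected library. RPN10 was the lowest subunit mRNA of the RiboMinus library.

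The lid was the lowest group in the unselected library, with a median of 199.9 RPKM over its 8 members. RPN8 (YOR261C, chrXV:815915-816931), the partner of the deubiquitinase subunit, had 454 RPKM in the poly(A)-selected, 495 RPKM in the RiboMinus and 228 RPKM in the unselected library. RPN11 (YFR004W), the deubiquitinase itself, had 314, 241 and 191 RPKM. RPN9 (YDR427W, chrIV:1322205-1323386) had 148, 202 and 148 RPKM. RPN8 was the highest lid mRNA in the poly(A)-selected and RiboMinus libraries, and RPN9 was the lowest subunit mRNA of the poly(A)-selected and unselected libraries. The remaining lid genes encode subunits of the horseshoe-shaped lid scaffold. RPN5 (YDL147W) had 232, 370.05 and 237 RPKM, and RPN7 (YPR108W) had 234, 341 and 179 RPKM. RPN3 (YER021W) had 186, 263 and 199 RPKM. RPN6 (YDL097C) had 281, 192 and 218 RPKM, and RPN12 (YFR052W) had 327, 196 and 201 RPKM. RPN3, RPN5 and RPN7 were highest in the RiboMinus library, whereas RPN6 and RPN12 were highest in the poly(A)-selected library.

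ECM29 stood below every subunit in all 3 libraries, and RPN4 did so in the poly(A)-selected and unselected libraries. ECM29 (YHL030W, chrVIII:40084-45690), the adaptor that holds core and regulatory particle together, had 28.7 RPKM in the poly(A)-selected, 129 RPKM in the RiboMinus and 89.6 RPKM in the unselected library. RPN4 (YDL020C, chrIV:415113-416708) had 80.5, 144 and 90.9 RPKM. In the RiboMinus library RPN4 lay above RPN10, PRE4 and PRE5, the lowest subunits at 133, 136 and 143 RPKM.

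**Figure D2:**
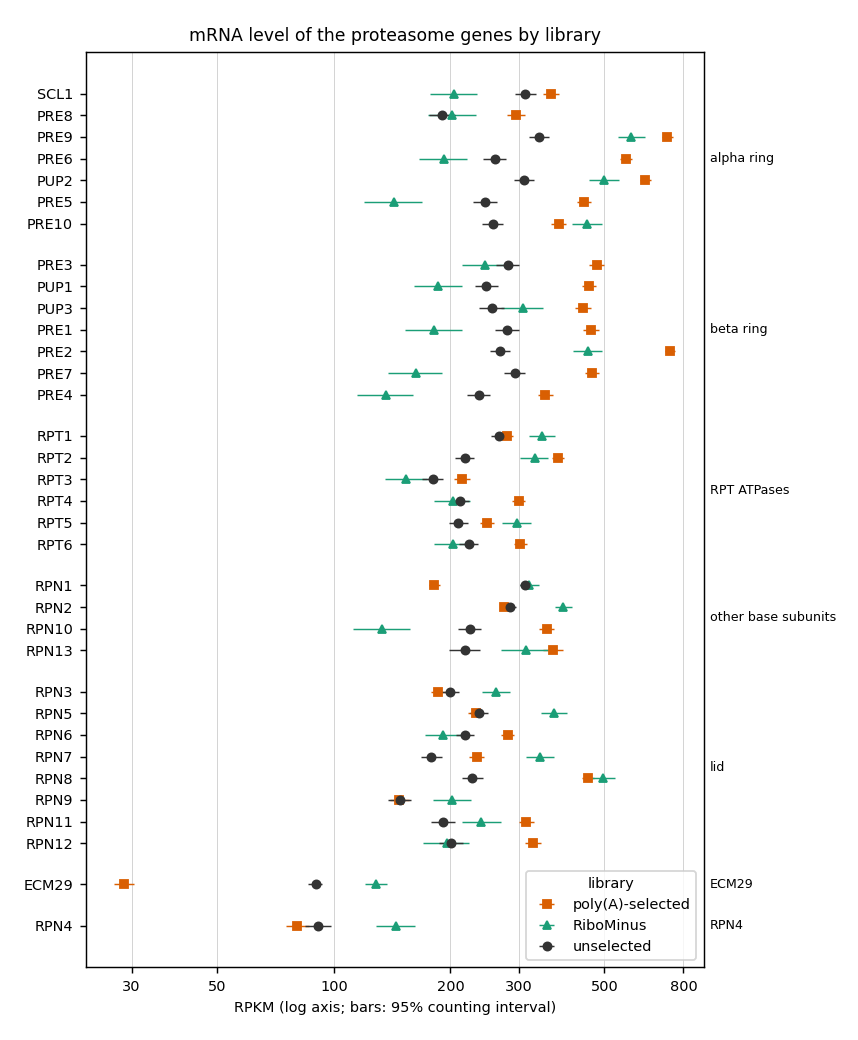
RPKM (log axis) of each of the 34 genes in the poly(A)-selected, RiboMinus and unselected library, with exact Poisson 95% counting intervals as bars. The subunits of the unselected library form a column between 148 and 339 RPKM, the RiboMinus points scatter on both sides of it, and ECM29 in the poly(A)-selected library is the lowest point at 28.7 RPKM.

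Balance among the subunits was described by the SD of log2 RPKM. Over the 14 core subunits it was 0.39 in the poly(A)-selected, 0.71 in the RiboMinus and 0.21 in the unselected library, where counting error alone gives 0.031, 0.098 and 0.049. Over the 18 regulatory subunits it was 0.41, 0.51 and 0.25, with counting error of 0.032, 0.076 and 0.044. Over all ORFs kept and above 0 the SD was 2.02, 1.88 and 1.91. TRiC/CCT, the cytosolic folding chamber with 8 kinds of subunit, had SDs of 0.21, 0.67 and 0.20, so its mRNAs too were most uneven in the RiboMinus library. Without replicates it was not tested whether these spreads differ between libraries.

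Genes of a library are no replicates of each other, so correlations across the 32 subunits are given as descriptions. Pearson's r of log2 RPKM was 0.62 between the poly(A)-selected and the unselected library. It was 0.33 between the RiboMinus and the unselected library and 0.22 between the poly(A)-selected and the RiboMinus library. Within the 14 core subunits these values were 0.63, 0.45 and 0.60, and within the 18 regulatory subunits 0.23, 0.44 and 0.15. For both pairs with the poly(A)-selected library the core values were the higher ones, and for the RiboMinus and unselected libraries core and regulatory values were close; these differences were not tested.

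The core particle was set against the regulatory particle in each library. In the poly(A)-selected library the core had a median of 459 RPKM and the regulatory particle 280.3 RPKM, a log2 difference of 0.71, or 1.64-fold. All 14 core subunits there exceeded the regulatory median, and 0 of 18 regulatory subunits exceeded the core median. In the unselected library the medians were 265 RPKM for the core and 218 RPKM for the regulatory particle, a log2 difference of 0.28, or 1.22-fold. Again 13 of 14 core subunits, PRE8 being the exception, lay above the regulatory median.

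In the RiboMinus library the order of the medians was the opposite, with 203 RPKM for the core and 279.6 RPKM for the regulatory particle, a log2 difference of -0.46. The means of log2 RPKM differed in the same direction by only -0.064, so the size of the difference depends on the use of medians. Among the core mRNAs PRE9, PUP2, PRE2 and PRE10 had 451 to 587 RPKM, and the other 10 had 136 to 307 RPKM. With the trend of level with coding length removed over all ORFs, the core minus regulatory difference was 0.017 in the poly(A)-selected, -0.45 in the RiboMinus and 0.17 in the unselected library. Alpha and beta rings had similar medians, with log2 differences of alpha minus beta of -0.056, 0.13 and -0.047 in the same order of libraries.

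**Figure D3:**
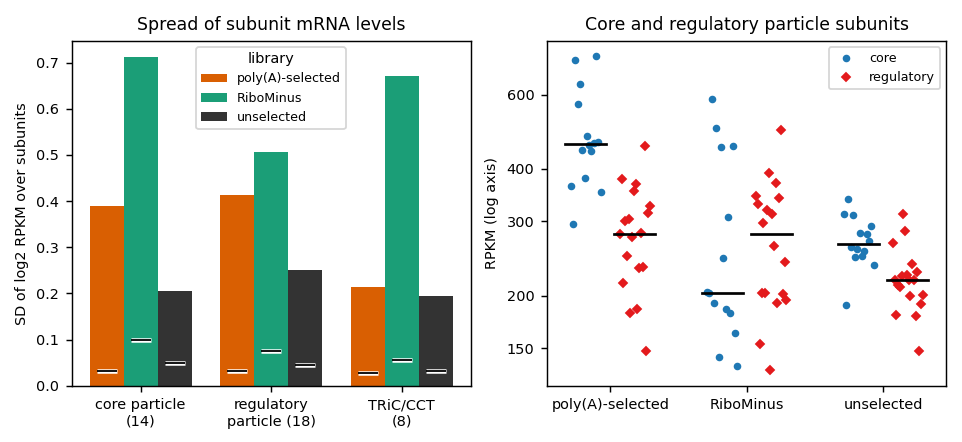
Left, SD of log2 RPKM over the subunits of the core particle, the regulatory particle and TRiC/CCT in each library (bars from 0), with a short line at the SD that counting error alone gives. Right, RPKM (log axis) of every core and regulatory subunit in each library with the median as a line: the core median is above the regulatory median in the poly(A)-selected library (459 against 280.3 RPKM) and in the unselected library, and below it in the RiboMinus library.

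The poly(A)-selected library was set against the unselected library to compare the relative levels of these mRNAs with and without capture by oligo(dT). With 1 library per preparation, an effect of a treatment cannot be told apart from other differences between libraries, here and in the comparisons below. Ratios are log2 of RPKM plus 0.5, less the median of all ORFs kept, so that 0 is the typical ORF; a member counts as higher or lower at 1.5-fold, a rule of size. Most core mRNAs were above the typical ORF, with PRE2 highest, while the scaffold RPN1 and the adaptor ECM29 were below it. Of the 34 members 7 were higher and 2 lower, which is 20.6% and 5.88%, against 20.4% and 21.3% of all ORFs kept. The share of higher members was therefore that of the background.

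The 7 higher members were PRE2, PRE6, PRE9, PUP2, RPN8, PUP1 and PRE5, of which 6 are core subunits. PRE2 had a ratio of 1.22 with a counting interval of 1.12 to 1.32, or 2.33-fold. PRE6 had 0.89 (0.78 to 1.0) and PRE9 0.86 (0.77 to 0.96). SCL1 was the 1 core subunit not above 0, at -0.02 (-0.13 to 0.09). The median ratio was 0.54 over the core and 0.14 over the regulatory particle, against 0 for all ORFs kept. Among the regulatory subunits the ratio spanned -1.02 for RPN1 (-1.08 to -0.95) to 0.75 for RPN8 (0.65 to 0.86). The ATPases stayed near the typical ORF, with a median of 0.11 and RPT2 highest at 0.56. ECM29 had -1.86 (-1.99 to -1.77), or 3.64-fold lower, and RPN4 had -0.41 (-0.57 to -0.26).

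Coding length moved with these ratios. The core subunits are short, with a median of 759 nt, the regulatory subunits had a median of 1294.5 nt, and RPN1 and ECM29 have 2979 and 5604 nt, against a median of 1248 nt for all ORFs kept. Ratio and length had a Spearman's rho of -0.71 over the 34 members and -0.76 over all ORFs kept, both given as descriptions of points that share libraries. Within the core, whose lengths span 594 to 864 nt, rho was 0.11. With the length trend of all ORFs removed, the median was -0.041 over the core and 0.059 over the regulatory particle. PRE2 at 0.87 and RPT2 at 0.59 were then the higher members, and ECM29 at -0.88 the lower one, while RPN1 had -0.23.

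**Figure D4:**
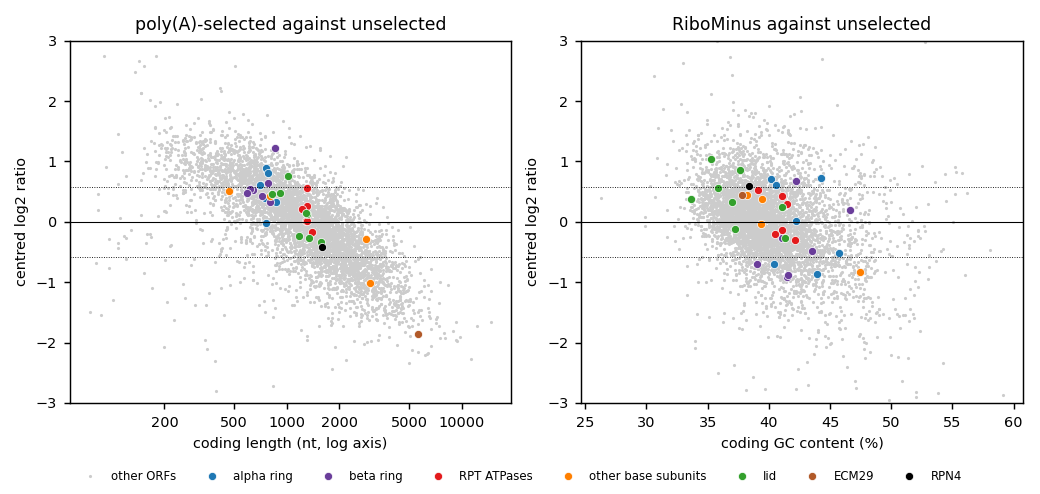
Left, centred log2 ratio of the poly(A)-selected to the unselected library against coding length (nt, log axis); right, that of the RiboMinus to the unselected library against coding GC content (%). Grey points are the other ORFs kept, coloured points the members by group, and dotted lines mark 1.5-fold; 6 and 12 other ORFs lie outside the range drawn. On the left the members follow the slope of the grey points, with ECM29 at -1.86 on the far right, and on the right core subunits of similar GC content lie both above and below 0.

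The RiboMinus library, made from RNA cleared of rRNA with probes, was set against the same unselected library. Both sets of ratios share that library, so its own errors enter both. The core subunits moved apart: PRE10, PRE9, PRE2 and PUP2 were higher and PRE7, PRE4, PRE5, PRE1 and SCL1 lower. The lid subunits RPN8 and RPN7 were higher, and the ubiquitin receptor RPN10 was lower. Of the 34 members 7 were higher, RPN4 included, and 6 were lower, which is 20.6% and 17.6%, against 14.6% and 16.0% of all ORFs kept. RPN4, at 0.5875, only just passed the 1.5-fold rule, and with a pseudocount of 2 the count of higher members was 6.

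PRE10 had a ratio of 0.73 with a counting interval of 0.58 to 0.89, and PRE9 had 0.72 (0.57 to 0.86). PRE7 had -0.92 (-1.18 to -0.68), or 1.90-fold lower, from 155 RiboMinus reads and 943 unselected reads. PRE4 had -0.87 (-1.14 to -0.62) and PRE5 -0.86 (-1.14 to -0.60). The intervals of the 4 higher and the 5 lower core subunits lay wholly on opposite sides of 0. These subunits were picked by the 1.5-fold rule, so at these read counts that follows from the choice and is no separate support. In the lid, RPN8 had 1.04 (0.90 to 1.18), the highest ratio of all members, and RPN7 had 0.85 (0.71 to 1.0). RPN10 had -0.83 (-1.10 to -0.57). The ATPases lay between -0.30 for RPT3 and 0.52 for RPT2, and none of them passed 1.5-fold. RPN1 had -0.04 (-0.13 to 0.05), RPN4 0.59 (0.39 to 0.79) and ECM29 0.44 (0.33 to 0.56). The median was -0.38 over the core and 0.31 over the regulatory particle, within which the lid had 0.35.

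Coding GC content moved with these ratios over the members as a whole. The lid ORFs had a median GC content of 37.1% and the core ORFs 41.9%, against 39.6% for all ORFs kept, and Spearman's rho between ratio and GC content was -0.46 over the 34 members and -0.38 over all ORFs kept. Within the core rho was 0.13: PRE10, at 44.3% GC, was higher, and PRE5, at 44.0%, was lower. With the GC trend of all ORFs removed, the core median was -0.073 and the regulatory median 0.19, and 8 members were higher and 3 lower. PRE7, PRE4 and PRE1 were the 3 lower ones, at -0.76, -0.71 and -0.69. PRE10 then had the highest ratio, at 1.12. The RiboMinus library has the fewest reads, and its intervals are the widest for that reason.

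**Figure D5:**
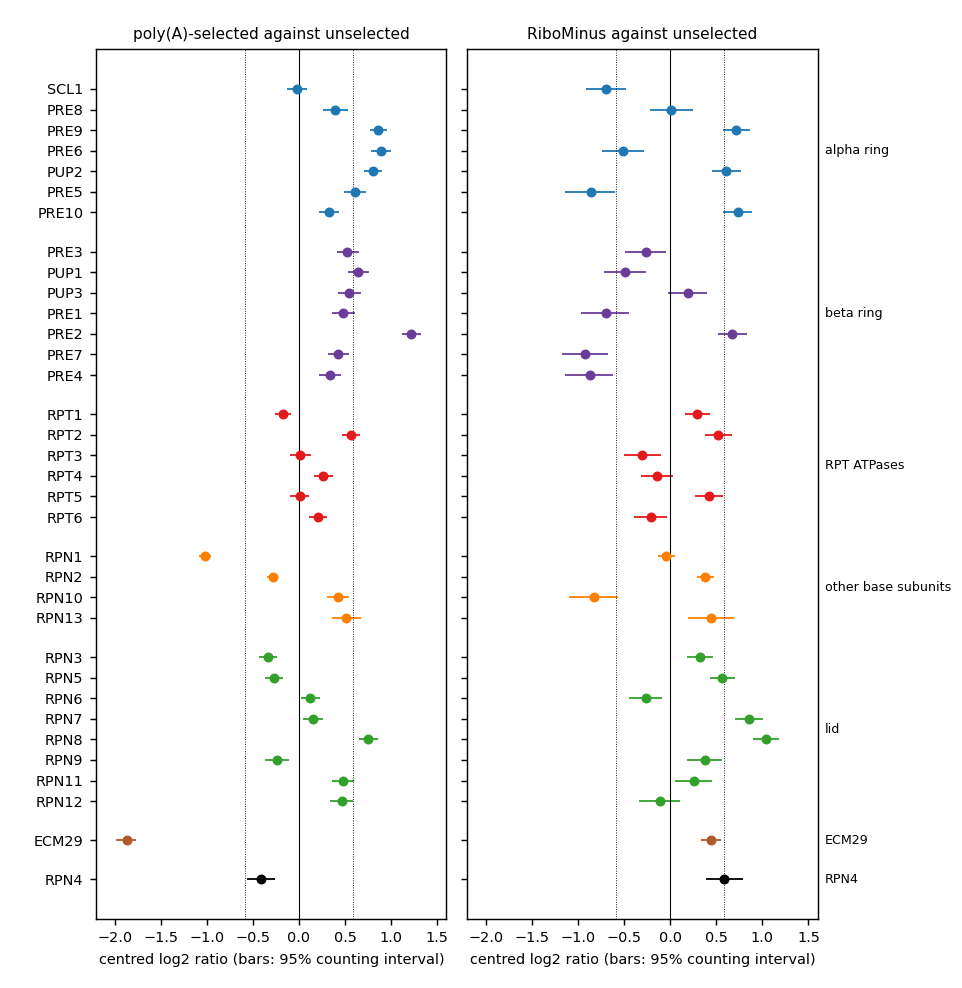
Centred log2 ratio of each member, poly(A)-selected against unselected on the left and RiboMinus against unselected on the right, with 95% counting intervals as bars and dotted lines at 1.5-fold. On the left 13 of 14 core subunits lie above 0 and ECM29 lies at -1.86; on the right the core splits, from -0.92 for PRE7 to 0.73 for PRE10. Both panels share the unselected library.

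The poly(A)-selected and the RiboMinus library differed most for the beta ring. Of its 7 members 6 were higher in the poly(A)-selected library, with a median ratio of 1.18, and the exception PUP3 had 0.41. With the length trend removed 3 of the 7 were higher, PUP1, PRE7 and PRE4, with a median of 0.56. Over all members 11 were higher and 7 lower, which is 32.4% and 20.6%, against 25.8% and 24.0% of all ORFs kept. PRE5 had the highest ratio, 1.52 (1.27 to 1.79), followed by PRE6 at 1.45 (1.24 to 1.67), PRE7 at 1.40 (1.17 to 1.65) and RPN10 at 1.30 (1.05 to 1.56). The lower members were ECM29 at -2.25 (-2.40 to -2.15), RPN4 at -0.95, RPN1 at -0.92, RPN5 at -0.78, RPN7 at -0.65, RPN2 at -0.62 and RPN3 at -0.61. The median was 0.78 over the core and -0.073 over the regulatory particle. With the length trend removed the core median was 0.21, and 6 members were higher and 7 lower. The lower ones were then PRE10, RPN13, RPN5, RPN7, RPN9, ECM29 and RPN4. RPN1, RPN2 and RPN3 no longer passed 1.5-fold, at -0.12, 0.14 and -0.43. Coding GC content moved with this ratio too, with a rho of 0.60 over the 34 members and 0.37 over all ORFs kept, and with its trend removed the core median was 0.69 and the regulatory median 0.14. What part length and GC content have in these ratios was not tested.

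Other genes of the pathway were read from lists. The 9 genes of assembly chaperones had much lower mRNA levels than the subunits they help to assemble, with a median of 56.6 RPKM in the unselected library. UMP1, which guides maturation of the core particle, was the highest with 309.9 RPKM in the poly(A)-selected, 101 RPKM in the RiboMinus and 143 RPKM in the unselected library. RPN14, a chaperone of the base, was the lowest with 27.8, 27.3 and 26.6 RPKM. None of the 9 windows held the exact PACE motif, against 1.28% of all listed ORFs, so the count is near the background share. The looser form was not counted for this list. Against the unselected library 3 of 9 were higher and 0 lower after poly(A) selection, where 20.4% and 21.3% of all ORFs kept were, with IRC25, of a pair that helps to form the alpha ring, highest at 0.88 and RPN14 lowest at -0.17. After RiboMinus treatment 0 were higher and 2 lower, where 14.6% and 16.0% of all ORFs kept were, from -0.79 for PBA1, another alpha ring chaperone, to 0.41 for HSM3, a chaperone of the base. The 2 lower genes, PBA1 and IRC25, had 34 and 29 RiboMinus reads, and the interval of IRC25 was -1.23 to -0.017. After poly(A) selection the 3 higher genes, UMP1, IRC25 and NAS6, had ORFs of 444, 537 and 684 nt. POC4 and NAS2, of 444 and 660 nt, were not higher. HSM3 and RPN14, the only ones below 0, had 1440 and 1251 nt. The part of length was not tested.

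Among 8 proteasome-associated genes the median was 133 RPKM in the unselected library. SEM1, a small lid subunit outside the 34 genes, was highest with 1142 RPKM in the poly(A)-selected, 648 RPKM in the RiboMinus and 355 RPKM in the unselected library. HUL5, a ubiquitin ligase that binds the proteasome, was lowest in the unselected library, with 18.01, 38.4 and 29.0 RPKM in the same order; in the RiboMinus library DDI1, a shuttle for ubiquitylated proteins, was lower with 32.5 RPKM. After poly(A) selection 1 of the 8 was higher, SEM1 at 1.45, and 2 were lower, with BLM10, an alternative cap of the core, lowest at -1.42, against the same 20.4% and 21.3%. The ORF of SEM1 has 267 nt, and those of the lower genes BLM10 and HUL5 have 6429 and 2730 nt. After RiboMinus treatment SEM1 at 0.79 was the higher gene and RAD23, a shuttle that brings ubiquitylated proteins to the proteasome, the lower one at -1.22, against 14.6% and 16.0% of all ORFs kept.

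Of 13 genes of ubiquitin supply and handling 12 are listed. CDC48 was the highest in the unselected library, with 520.4 RPKM in the poly(A)-selected, 1116 RPKM in the RiboMinus and 844 RPKM in the unselected library. DOA4, a deubiquitinase that recycles ubiquitin, was the lowest in the unselected library, with 8.74, 36.3 and 21.1 RPKM in the same order; in the RiboMinus library UBC5, a ubiquitin-conjugating enzyme, was lower with 12.0 RPKM. After poly(A) selection 1 of the 12 was higher and 6 were lower, against 20.4% and 21.3% of all ORFs kept, with UBC5 highest at 0.96 and UBR2 lowest at -1.69. The 6 lower genes, UBA1, UFD4, UBR1, UBR2, CDC48 and DOA4, have long ORFs of 2505 to 5850 nt, in a comparison in which ratio and length had a rho of -0.76 over all ORFs kept; the part of length was not tested. UBR2 and MUB1 form the ligase that marks Rpn4 for degradation. After RiboMinus treatment 2 were higher, with MUB1 highest at 0.85, and 2 were lower, with UBC5 lowest at -1.15 from 7 RiboMinus reads, against 14.6% and 16.0%. UBC4 and UBC5 are close paralogs, so reads may be split between them.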

How the data were processed

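RNA-seq of cytoplasmically enriched RNA gave 3 libraries, 1 per preparation. The authors deposited RPKM values to 2 decimals per ORF. The submitters' processing notes name TopHat2, Bowtie2 and the build sacCer3; for the read counter the sources used here give nothing. ORF names were matched to RefSeq's R64 annotation (203 needed a hyphen put back), and sequences, lengths and GC content come from there. Low RPKM values times coding length without the stop codon fall on whole reads: of values under 100 reads, 99.1%, 99.9% and 99.9% lay within 0.1 read in the poly(A)-selected, RiboMinus and unselected library. The read totals used for exact Poisson and Clopper-Pearson intervals (95%) come from that spacing, an inference from the values.

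ORFs with a mean RPKM of at least 1 were kept. Ratios used a pseudocount of 0.5 RPKM, which understates differences of low ORFs, and were centred by subtracting medians of 0.24, 0.076 and 0.11 log2 (poly(A)-selected against unselected, RiboMinus against unselected, poly(A)-selected against RiboMinus). Length and GC trends were removed with a running median whose width is 10% of ORFs. Recovery of read totals and of planted changes was checked on simulated libraries to which no length or GC trend was added. That check covered neither the removal of trends nor false calls. The members, lists and thresholds were chosen with earlier results of these data known. All 34 members are named; of each other list, the extremes of level in the unselected library and of ratio against it. Other genes outside the 34, such as DDI1, UBA1, UFD4, UBR1 and the neighbours that share a motif site, were named after their values were seen. Values of 2 further libraries, footprints among them, belong to no sample described here and were not used. Python 3.11.15, numpy 2.4.6, pandas 2.3.3, scipy 1.17.1 and matplotlib 3.10.9 were used.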

Additional observations from a re-analysis of the deposited data

How the results depend on the processing

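Of 118 values recomputed under the alternatives, 78 moved by less than their counting interval (counts of genes: less than 1.5 times) and 40 by more. Pseudocounts of 0.1 or 2, no filter and a mean RPKM of at least 10 gave only small moves. No paired analysis was possible because each preparation has 1 library. Depth limits the RiboMinus values most.

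Without centring, 17 members were higher after poly(A) selection against the unselected library, and against the RiboMinus library 4 were lower; the core and regulatory medians were 0.78 and 0.38 (poly(A)-selected against unselected), -0.30 and 0.38 (RiboMinus against unselected), and 0.90 and 0.038 (poly(A)-selected against RiboMinus), where the regulatory median of -0.073 changed sign. With the length trend removed, 2 were higher and 1 lower for poly(A)-selected against unselected, with medians of -0.041 and 0.059, and 6 were higher for poly(A)-selected against RiboMinus, with medians of 0.21 and -0.13. With the GC trend removed, 3 were lower for RiboMinus against unselected, with medians of -0.073 and 0.19; the medians were 0.45 and 0.11 for poly(A)-selected against unselected and 0.69 and 0.14, again with a changed sign, for poly(A)-selected against RiboMinus. At 2-fold, 1 member was higher for poly(A)-selected against unselected, 1 higher and 0 lower for RiboMinus against unselected, and 7 higher and 1 lower for poly(A)-selected against RiboMinus.

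The core minus regulatory difference was 0.79 (poly(A)-selected) and -0.064 (RiboMinus) from means of log2, -0.37 with ECM29 added (RiboMinus), and 0.017 (poly(A)-selected) and 0.17 (unselected) without the length trend. From the median absolute deviation, the SD of log2 level over core subunits was 0.43, 0.61 and 0.15 in the poly(A)-selected, RiboMinus and unselected library, and over regulatory subunits 0.39, 0.64 and 0.18; by that measure the RiboMinus spread was larger for the regulatory particle than for the core. With ECM29 added, the regulatory SD was 0.85 in the poly(A)-selected and 0.38 in the unselected library. The cause of these moves was not tested.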
